A study of Mus musculus with 102 samples.

Results

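The interferon-stimulated genes described here are 42 genes taken by name from the deposited expression tables of mouse spinal microglia, 42 of the 18856 genes in the normalized table and of the 53715 in the raw count table. The rule uses gene names only and no measured value. Every name matched exactly 1 gene, and all 42 passed the filter on low counts that left 20461 genes for testing. Microglia, the resident macrophages of the central nervous system, had been sorted by flow cytometry from lumbar spinal cord, and their polyadenylated RNA was amplified and sequenced. The mice were wild type (WT) or ABC-imKO (KO), which carry Abca1fl/fl and Abcg1fl/fl alleles together with Cx3cr1-CreERT2, an inducible Cre recombinase expressed from the promoter of the fractalkine receptor gene; the labels give no details of its induction. They were naive, or were injected intraperitoneally with cisplatin, a platinum drug that causes a painful neuropathy, on days 1 and 3 and then intrathecally on day 7 with saline or with the apolipoprotein A-I binding protein AIBP. Naive mice had no intrathecal injection, so cisplatin and the injection cannot be told apart in a comparison with them, and no age of the mice is in the labels. The 6 groups held 3 numbered samples each, except WT cisplatin AIBP, which held 2 (samples 7 and 9). Each numbered sample was the sum of 6 runs (3 technical replicates on 2 lanes). A numbered sample may be 1 mouse or several pooled, which the labels leave unsaid, and p-values here cover only the spread between samples.

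Interferons of type I are cytokines made in response to viral nucleic acid and other danger signals. They bind the receptor formed by IFNAR1 and IFNAR2, and the kinases JAK1 and TYK2 then activate a complex with STAT2 and IRF9 that binds interferon-stimulated response elements in promoters. The induced genes encode sensors of nucleic acid, antiviral effectors and regulators of the pathway itself, and a subset of microglia that expresses them is known from injured, infected and ageing nervous tissue.

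Sample totals were 45.1 to 76.6 M counts. The 8 microglia markers were at high levels in every sample (summed level 18655 to 52707 CPM, counts scaled to library size with TMM factors). Markers of B cells stayed under 1 CPM in all groups, but RNA of other cells was present. Summed levels over the samples were 89.7 to 598 CPM for oligodendrocyte markers, 76.2 to 234 for astrocyte markers and 0.666 to 41.9 for endothelial markers. Markers of neutrophils, neurons and T and NK cells summed to at most 15.1, 8.94 and 4.02 CPM. Cx3cr1 itself bears on the labels, since its locus drives the Cre. It stood at 9349 to 10656 CPM in WT naive and 5531 to 7902 in the WT samples given cisplatin, but at 3397 to 4871 in KO naive and 1718 to 2771 in KO cisplatin saline. In the samples labelled KO cisplatin AIBP it stood at 5551, 5250 and 7078 CPM, inside or near the range of the WT cisplatin samples, so those samples are named by their label throughout and no genotype direction is drawn from them. Abca1 and Abcg1 counts include exons outside the floxed ones and check nothing here. In bulk RNA, fewer cells of a type and less RNA per cell cannot be told apart.

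The promoter sequences were searched for a core motif of the element that the complex with IRF9 is known to bind, not for the whole element. A RefSeq table for GRCm38.p6 held promoter windows (250 bases before the transcription start and 50 after) for 32 of the 42 genes. Of their 38 windows, 26 had a start that matched the 5′ part of an annotated transcript of the gene. Positions before or after the start are those of the RefSeq windows. The core motif GAAANNGAAA, searched on both strands, was present in 19 of the 32 (59.4%), against 1079 of all 27025 genes with a window (3.99%). Windows of 30 bases around a match are shown as examples for some of the members with a match before the transcription start. They are written 5′ to 3′ on the strand of the gene, with the match in capitals (TTTC first where it lies on the other strand):
Ifi207 (chr1:173741831-173741860, minus strand): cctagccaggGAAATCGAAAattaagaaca
Oas1a (chr5:120907526-120907555, minus strand): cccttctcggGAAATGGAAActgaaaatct
Bst2 (chr8:71537583-71537612, minus strand): ggcattccagGAAAATGAAActgaaaggct
Gbp3 (chr3:142559989-142560018, plus strand): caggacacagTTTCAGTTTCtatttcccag
Slfn8 (chr11:83020839-83020868, minus strand): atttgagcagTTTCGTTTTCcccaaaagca
Isg15 (chr4:156200877-156200906, minus strand): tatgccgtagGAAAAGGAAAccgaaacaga
Ifit3 (chr19:34583363-34583392, plus strand): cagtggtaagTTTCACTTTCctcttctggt
Ifit3b (chr19:34607759-34607788, plus strand): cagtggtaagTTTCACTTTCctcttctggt
The windows of Ifit3 and Ifit3b are identical letter for letter. Matches in Bst2, Gbp3, Isg15 and Oas1a come in overlapping runs of the repeat, as the letters after the capitals show. In Ifitm3, Ddx58 and Ifih1 the matches lay after the transcription start, and the Slfn2 window held none. A match describes the letters only, not a bound site.

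Many members sit side by side in the genome. Neighbouring members on GRCm38 are Ifit2, Ifit3, Ifit3b and Ifit1 (chr19:34550694-34650009), Ifi209, Ifi207 and Ifi204 (chr1:173630917-173766943), Slfn5, Slfn8 and Slfn2 (chr11:82951349-83070678), Trim30b, Trim30a and Trim30d (chr7:104355382-104507849), Oas2, Oas3 and Oas1a (chr5:120730333-120907521) and 5 further pairs. Some are close copies, which bears on how the paired reads of 50 bases could be assigned. Of the different 50-base stretches in annotated Ifit3 transcripts 51.2% also occur in Ifit3b, and 57.6% of those of Oas1a occur in Oas1g, so the counts of Ifit3, Ifit3b and Oas1a are uncertain as single genes. Ifi209 shares 33.4% with Ifi214 and Ifi204 shares 14.8% with Ifi211. The share was 7.29% over all other genes for Ifi207, 10% for Ifitm3 and 4.27% for Slfn2. Exons of Irf7 overlap Phrf1 on the opposite strand and those of Irf9 overlap Rnf31 on the same strand, and the strand setting of the counting is not given in the sources used here, so the levels of Irf7 and Irf9 are uncertain too.

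All 42 transcripts were detected, 32 of them at a mean of 10 CPM or more and 1 under 1 CPM. Mean levels over the 17 samples ran from 0.215 to 164 CPM (median 24.8). The most abundant were Slfn2 (164 CPM), a Schlafen protein known from the quiescence of T cells and monocytes, Ifitm3 (134), which blocks fusion of viruses with endosomal membrane, Bst2 (115), the tether that holds budding virions, and Irf9 (97.2), the DNA-binding part of the interferon-activated complex. Trim30a (87.5), Stat2 (46.9), Rtp4 (46.2) and Slfn8 (45.9) followed. Per kilobase of exon, which allows levels to be compared between genes, Ifitm3 led with 198 CPM per kb, followed by Bst2 (128), Slfn2 (98.9), the small membrane protein gene Ifi27l2a (65.0) and Rtp4 (21.7). The 3 membrane effectors and Slfn2 thus stood above 60 CPM per kb, and the other 38 members at or under 21.7. At the low end, Ifi44 held 249 counts in all samples together, and no statement here rests on its folds.

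The 6 groups differed in the total of these transcripts. Summed over the members, the 3 WT naive samples stood at 785, 925 and 1000 CPM, and the 3 KO naive samples at 2589, 1720 and 1524. WT cisplatin saline stood at 797, 1004 and 1341 CPM and WT cisplatin AIBP at 1826 and 984. KO cisplatin saline stood at 1258, 2001 and 1303 CPM, and the samples labelled KO cisplatin AIBP at 1945, 1545 and 1364. KO naive had the highest group mean, and all 3 of its samples lay above all WT naive and WT cisplatin saline samples. Gene by gene, 30 of 42 members had their highest group mean in KO naive, and 21 had their lowest in WT naive.

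**Figure D1:**
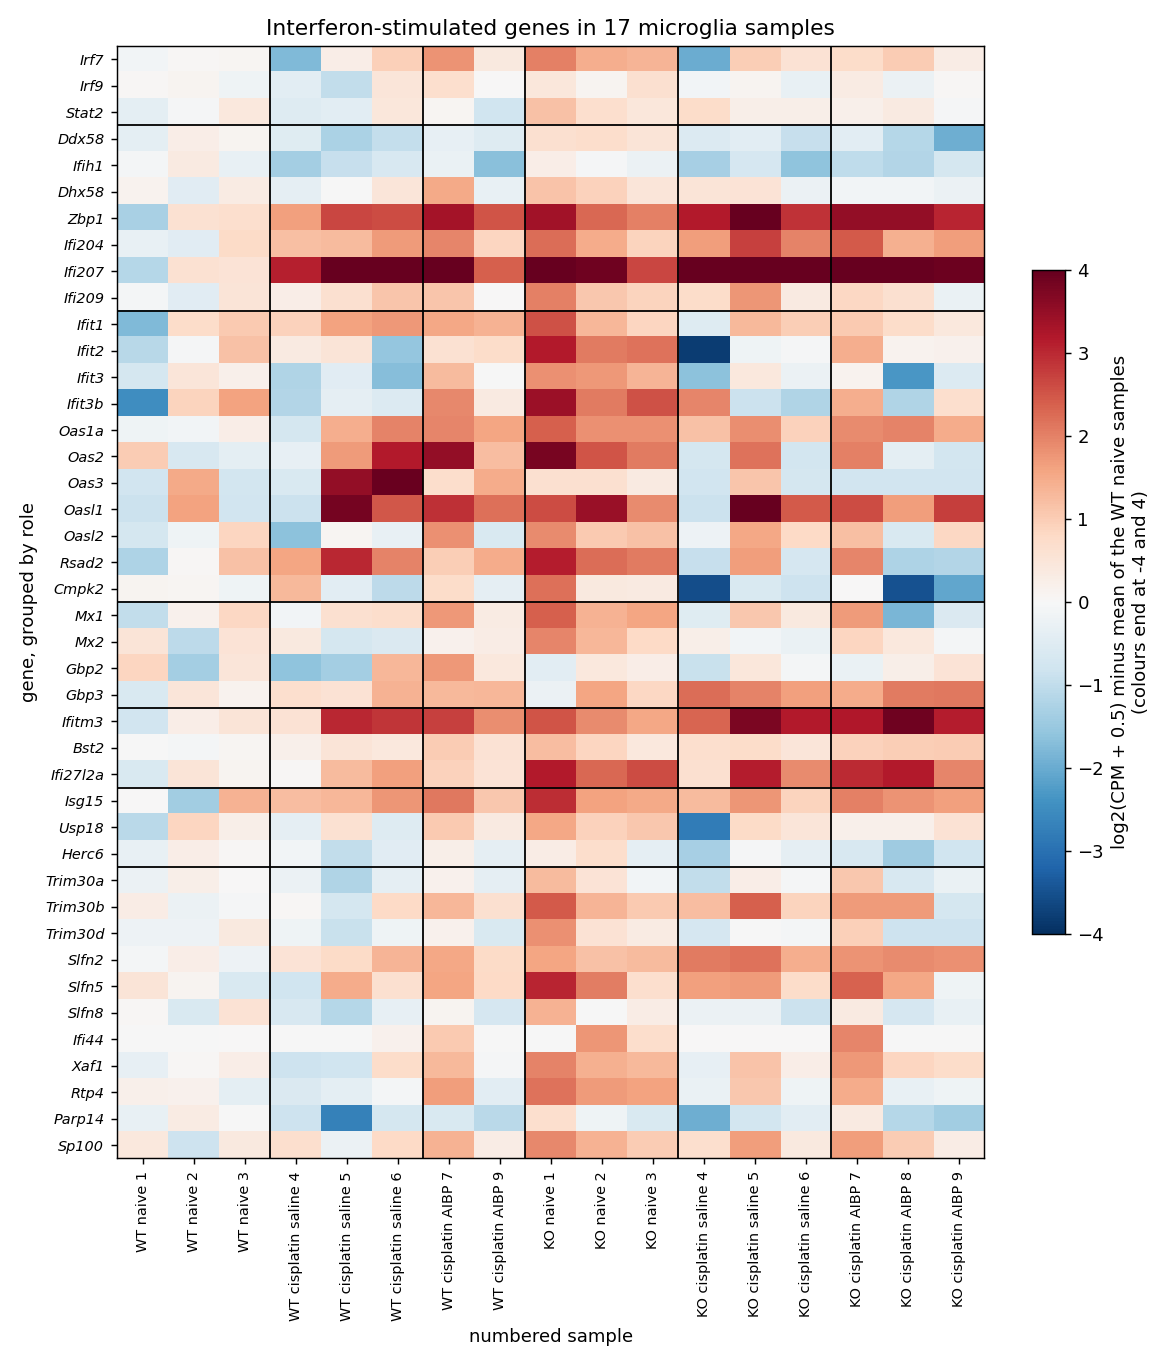
Each row is 1 of the 42 interferon-stimulated genes grouped by role (horizontal lines) and each column 1 of 17 numbered samples grouped by genotype and treatment (vertical lines). Colour gives log2(CPM + 0.5) minus the mean of the 3 WT naive samples, red for higher and blue for lower: the KO naive columns are red in nearly every row, while cisplatin columns mix red (Ifi207, Ifitm3, Zbp1) and blue (Ddx58, Ifih1) rows.

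The 3 KO naive samples held more of most interferon-stimulated transcripts than the 3 WT naive samples, although no single gene passed the test. In 31 of 42 members all 3 KO naive samples lay above all 3 WT naive samples (termed without overlap higher), and in 0 did they lie below. Among all 20461 genes tested, 5.49% lay entirely above and 4.14% entirely below. The members varied together from sample to sample, as described below, so the counts of members given here are not independent evidence gene by gene. The median log2 fold change of the members was 1.41, against 0.00 for all genes, and 40 of 42 were positive. With edgeR's quasi-likelihood test and Benjamini-Hochberg adjustment over all genes, 0 members were called, that is had an adjusted p under 0.05 (background share of all genes called 0.00489% higher and 0% lower), while 21 of 42 had an unadjusted p under 0.05 (5.96% of all genes). DESeq2 called 9 members higher, and 0.831% of all genes in either direction. Anything else that differed between the mice of these groups cannot be told apart from the genotype.

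Slfn2 (chr11:83065112-83070678) had the smallest p of the members in naive cells. It stood at 61.7, 77.1 and 56.6 CPM in WT and at 192, 147 and 154 in KO. The lowest KO sample was well above the highest WT sample (log2 fold change 1.33 ± 0.26, SE; edgeR adjusted p = 0.284). Ifi207 (chr1:173723427-173741747), a member of the PYHIN family whose relatives detect DNA, was near 0 in WT, with 0.162, 1.69 and 1.59 CPM, and stood at 22.7, 21.1 and 8.65 in KO (3.92 ± 0.77, edgeR adjusted p = 0.304). The gap between the groups was wide, but KO sample 3 was well below samples 1 and 2. Bst2 had close values in WT, 73.9, 70.7 and 77.6 CPM in WT samples, against 173, 135 and 99.3 in KO samples (0.87 ± 0.19, edgeR adjusted p = 0.506), again without overlap.

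By role, all 3 transcription factor genes (Irf7, Irf9 and Stat2) were without overlap higher in KO naive, as were 6 of 7 nucleic acid sensors, 9 of 11 RNA-binding and oligoadenylate effectors, all 3 membrane effectors, 2 of 3 genes of the ISG15 system, 2 of 4 GTPases and 6 of 11 TRIM, Schlafen and other genes. Oas1a, a synthase of the 2-5A messenger that activates RNase L, stood at 5.6, 5.98 and 7.91 CPM in WT samples, against 35.5, 24.1 and 24.0 in KO samples. Ifi27l2a stood at 4.49, 10.3 and 7.80 CPM in WT samples, against 68.4, 37 and 45.7 in KO samples. Both groups of values were far apart (log2 fold changes 2.10 ± 0.52 and 2.74 ± 0.60, edgeR adjusted p = 0.712 and 0.538). Zbp1, which binds left-handed nucleic acid and can trigger necroptosis, stood at 0.263, 2.37 and 2.48 CPM in WT samples, against 18.7, 8.63 and 7.12 in KO samples (2.75 ± 0.68, edgeR adjusted p = 0.712). Ifitm3 stood at 12.6, 26.3 and 31.2 CPM in WT samples, against 128, 81.9 and 64.7 in KO samples. Rtp4 stood at 31.7, 30.9 and 21 CPM in WT samples, against 124, 91.0 and 85.4 in KO samples. Neither gene overlapped between the genotypes.

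The abundant regulators were nearer to each other. Stat2 stood at 30.2, 38.4 and 52.7 CPM in WT naive, against 89.3, 63.1 and 54.4 in KO naive (0.77 ± 0.32, edgeR adjusted p = 0.789). Irf9 stood at 93.6, 98.2 and 80.4 CPM in WT samples, against 125, 98.4 and 142 in KO samples, where the second KO sample and the second WT sample were nearly equal (0.43 ± 0.31). Trim30a, known as a brake on inflammatory signalling, overlapped between the groups, at 70.2, 96.2 and 83.1 CPM in WT samples, against 200, 122 and 76.3 in KO samples. After cisplatin and saline Stat2 stood at 27.3, 29.2 and 54.5 CPM in WT samples, against 66.3, 46.3 and 46.3 in KO samples, Irf9 at 67.2, 45.1 and 126 and at 83.7, 97.6 and 73.7, and Trim30a at 70.4, 35.5 and 63.7 and at 41.1, 98.5 and 80.4. The genotypes overlapped in all 3 genes there. After AIBP, WT samples 7 and 9 stood at 42.1 and 22.6 CPM for Stat2, 144 and 90.9 for Irf9 and 93.4 and 63.9 for Trim30a, and the samples labelled KO spanned 38.2 to 50.2, 76.7 to 115 and 52.2 to 173.

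In other members the groups overlapped. Ifih1, which encodes the long double-stranded RNA sensor MDA5, stood at 36, 49.4 and 30.9 CPM in WT samples, against 45.4, 36.4 and 32.4 in KO samples, and the groups overlapped fully (-0.03 ± 0.36). Ddx58, which encodes the related sensor RIG-I, was higher without overlap but by little, 22.1, 35.5 and 32 CPM in WT against 46, 47.9 and 42.3 in KO (0.60 ± 0.35, edgeR adjusted p = 0.795). Gbp2, a GTPase known mainly as a target of interferon gamma, and Parp14, an ADP-ribosyltransferase (both chosen after their values were seen), overlapped between the groups with log2 fold changes of -0.14 ± 0.75 and 0.04 ± 0.57.

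**Figure D2:**
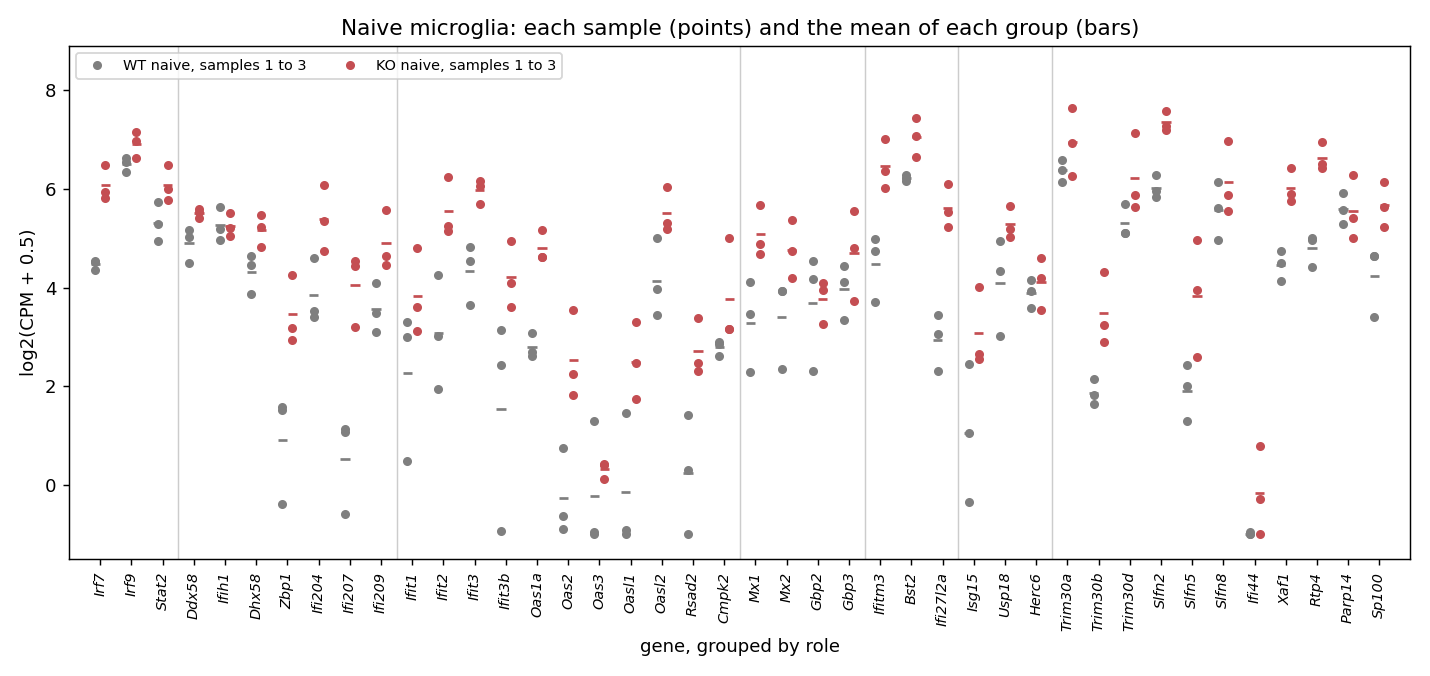
Points give log2(CPM + 0.5) of each of the 42 genes in the 3 WT naive (grey) and 3 KO naive (red) samples, and bars give the group means; grey lines part the role groups. The red points lie above the grey ones without overlap in 31 genes, and the groups overlap in the others, such as Ifih1, Gbp2 and Parp14.

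Other values differed between the naive groups as well. The summed level of 5 immediate early and heat shock genes that rise during tissue dissociation (Fos, Jun, Dusp1, Hspa1a and Hspa1b) was 9397 to 21436 CPM in WT naive, against 3515, 14341 and 18889 in KO naive 1, 2 and 3, so KO naive 1 alone lay below the WT range. KO naive 1 also had the highest value of the group in 34 of 42 members. Without it, the members' median log2 fold change was 1.18, and 33 of 42 members were without overlap higher (10.4% of all genes). Monocyte markers were low in both naive groups (summed level 2.91 to 65.2 CPM in WT and 4.18 to 24.6 in KO). The microglia markers, among them Cx3cr1, summed to 52707, 51041 and 45647 CPM in WT naive 1, 2 and 3. In KO naive they summed to 35046, 42244 and 45734, lowest in KO naive 1. The part of these differences in the result was not tested.

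In WT mice, 2 of the 42 genes, Ifi207 and Ifitm3, rose after cisplatin and saline and 0 fell (background 1.95% higher and 0.953% lower). Ifi207 stood at 0.162, 1.69 and 1.59 CPM in WT naive, against 12.1, 31.6 and 31.4 in WT cisplatin saline 4, 5 and 6. Every treated sample was above every naive one (log2 fold change 4.44 ± 0.79, edgeR adjusted p = 0.00848). Ifitm3 (chr7:141009586-141010770) stood at 12.6, 26.3 and 31.2 CPM in naive and 32.5, 178 and 160 after cisplatin (2.40 ± 0.57, edgeR adjusted p = 0.0356). Sample 4 was only just above the naive samples, and the change lay in samples 5 and 6. The Ifitm3 call was lost on leaving out any 1 of WT naive 1, 2 or 3 or of cisplatin samples 5 or 6 (edgeR adjusted p = 0.0697 to 0.156), and both calls were lost when the 2 groups were fitted alone (adjusted p = 0.0696 for Ifi207 and 0.109 for Ifitm3).

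Among the WT cisplatin saline samples, samples 5 and 6 also had the highest levels of monocyte markers. Ccr2, the chemokine receptor of inflammatory monocytes, stood at 95.3 and 62.8 CPM in them and at most 10.2 in any other sample. The border macrophage chemokine gene Pf4 stood at 40.6 and 31.6 CPM in them, against 0.343 in sample 4. The 6 border macrophage markers summed to 69.5 and 49.2 CPM in samples 5 and 6 and to 0.514 in sample 4. They also reached 39.2 CPM in the sample labelled KO cisplatin AIBP 8 and 22.1 in WT cisplatin AIBP 9. Over the 7 monocyte markers the summed level was 2.91 to 65.2 CPM in WT naive, 238 in sample 4, mostly fibronectin (Fn1), and 1125 and 745 in samples 5 and 6. It was 785 to 1220 CPM in KO cisplatin saline and 273 to 820 in the samples labelled KO cisplatin AIBP. Without samples 5 and 6, neither gene was called. Ifi207 then had a log2 fold change of 3.43 (adjusted p = 0.354) and Ifitm3 one of 0.53 (adjusted p = 0.889), and the members' median turned from 0.24 to -0.31 (0.067 without sample 6 alone). This fit had 1 treated sample, assumed to vary like the other groups. In sample 4 Ifi207 stood at 12.1 CPM and Ccr2 at 0.324. The microglia markers summed to 25208 to 32160 CPM in WT cisplatin saline, against 45647 to 52707 in WT naive. The part of monocytes, or of the lower microglia markers, in these values was not tested.

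The other members did not move together after cisplatin in WT. In all, 8 were without overlap higher (12% of all genes) and 3 lower (10.7%), and 24 had positive and 18 negative log2 fold changes. Without sample 4, 17 were without overlap higher (19.7% of all genes). Zbp1 stood at 5.30, 11.3 and 10.8 CPM after cisplatin (2.42 ± 0.67, edgeR adjusted p = 0.0686) and Slfn2 at 93.9, 110 and 167 (0.92 ± 0.26, edgeR adjusted p = 0.0704), both above their naive values in every sample. On the other side, the RNA sensor genes Ddx58 and Ifih1 were without overlap lower, Ddx58 at 20.9, 12 and 14.9 CPM (-0.91 ± 0.35, edgeR adjusted p = 0.203) and Ifih1 at 14.6, 19.9 and 24.3 (-0.99 ± 0.37, edgeR adjusted p = 0.186). By role, the 3 membrane effectors all had positive log2 fold changes (0.38 to 2.40), 2 of them without overlap higher. Among the 11 RNA-binding and oligoadenylate effectors, 1 was without overlap higher and 0 lower.

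**Figure D3:**
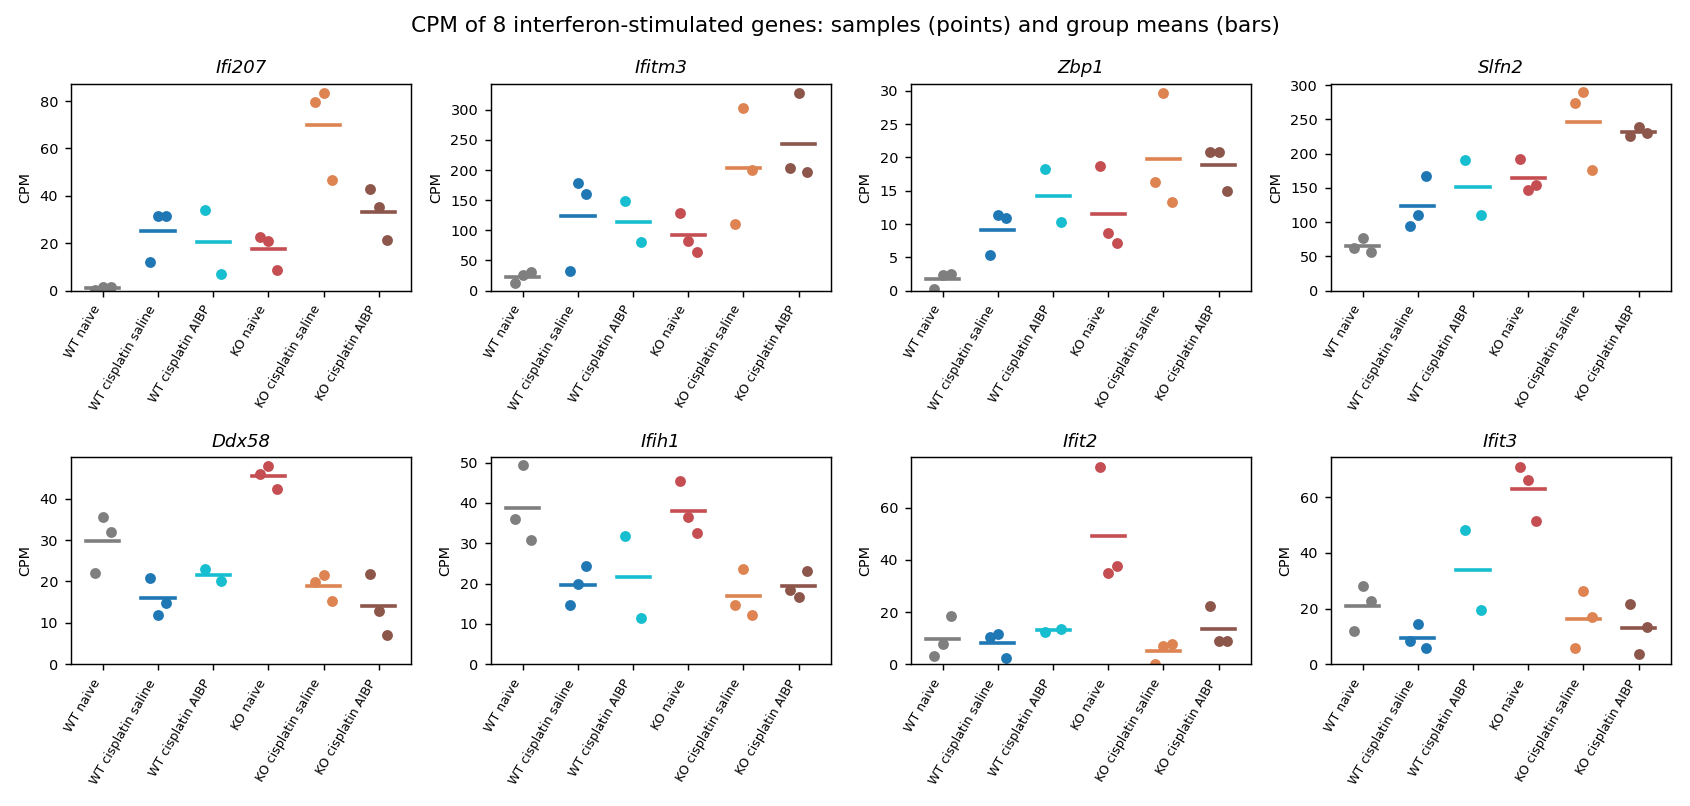
CPM of Ifi207, Ifitm3, Zbp1 and Slfn2 (upper row) and of Ddx58, Ifih1, Ifit2 and Ifit3 (lower row) in every sample, by group, on linear axes from 0; points are samples and bars group means. Ifi207 and Ifitm3 rise from near 0 or 23.3 CPM in WT naive to 25 and 124 after cisplatin, whereas Ifit2 and Ifit3 are highest in KO naive (49.3 and 62.9 CPM).

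In KO mice, most members had lower values after cisplatin and saline than in KO naive, but with edgeR 0 passed the test in either direction (background 2.42% higher and 1.99% lower; 12 of 42 at an unadjusted p under 0.05, against 18.1% of all genes). The median log2 fold change was -0.84, against -0.04 for all genes, and 35 of 42 were negative. In 16 members all 3 treated samples lay below all 3 naive ones (11.5% of all genes) and in 2 above (12%). DESeq2 called 8 members lower and 1 higher, and 10.7% of all genes in either direction. Without KO naive 1 the median was -0.48, and without KO cisplatin saline 5 the members without overlap lower were 25 (15% of all genes). The comparison shares the KO naive samples with the comparison of naive KO and WT cells, so the high values there enter both.

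Ddx58 came closest to the threshold. It stood at 46, 47.9 and 42.3 CPM in KO naive and 19.8, 21.6 and 15.4 after cisplatin, with a wide gap between the groups (-1.26 ± 0.35, edgeR adjusted p = 0.0575). Ifih1 stood at 45.4, 36.4 and 32.4 CPM in naive and 14.8, 23.7 and 12.2 after cisplatin (-1.17 ± 0.37, edgeR adjusted p = 0.0946). Ddx58 and Ifih1 were without overlap lower after cisplatin in WT as well. Ifit2, an RNA-binding inhibitor of translation, stood at 75.5, 34.8 and 37.6 CPM in KO naive and 0.114, 7.06 and 7.66 after cisplatin (-3.32 ± 1.04, edgeR adjusted p = 0.0948). Ifit3, its partner in the same complex, stood at 70.9, 66.3 and 51.4 CPM in naive and 6.01, 26.4 and 16.9 after cisplatin (-1.94 ± 0.64, edgeR adjusted p = 0.111). Slfn8 stood at 125, 46.8 and 58.0 CPM in naive and 39.7, 40.4 and 25.9 after cisplatin, and Rtp4 at 124, 91.0 and 85.4 and then 22.8, 58.2 and 24.2. None of these 6 genes overlapped between the groups.

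The 2 members without overlap higher were again Ifi207 and the GTPase gene Gbp3. Ifi207 stood at 79.7, 83.2 and 46.7 CPM after cisplatin (2.00 ± 0.70, edgeR adjusted p = 0.139). Gbp3 stood at 12.8, 46.5 and 27.4 CPM in KO naive and 73.8, 60.9 and 48.4 after cisplatin (1.08 ± 0.41, edgeR adjusted p = 0.170). By role, 5 of 11 RNA-binding and oligoadenylate effectors, 2 of 3 transcription factor genes, 2 of 4 GTPases and 4 of 11 TRIM, Schlafen and other genes were without overlap lower, and 0 of 3 membrane effectors. In these samples Ccr2 was at 0.227 to 6.74 CPM, while the 7 monocyte markers summed to 785 to 1220 CPM, of which Fn1 made up 639 to 1088.

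Intrathecal AIBP after cisplatin was not followed by a called change in the members. In WT, 0 of 42 were called (edgeR, background 0% in each direction; 2 at an unadjusted p under 0.05, 3.71% of all genes), 4 were without overlap higher (9.1% of all genes) and 1 lower (9.14%). The median log2 fold change was 0.46, and 34 were positive. DESeq2 called 0. Ifit3 stood at 8.27, 14.4 and 5.79 CPM after saline and 48.3 and 19.5 after AIBP (1.84 ± 0.68, edgeR adjusted p = 0.996). Both AIBP values were above all saline values, but AIBP sample 7 was far above sample 9. Rtp4 stood at 18.3, 20.6 and 25.7 CPM after saline and 88.4 and 20.5 after AIBP, and Oasl2, a relative of the 2-5A synthases, at 5.12, 18.2 and 13.8 and then 62.3 and 11.1. In each, 1 AIBP sample was high and the other lay among the saline samples. Sample 7 was the higher of the pair in 37 of 42 members, and without it the median was -0.091 and the fold changes of Rtp4 and Oasl2 turned negative, -0.088 and -0.16.

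Between KO cisplatin saline and the samples labelled KO cisplatin AIBP, 0 of 42 members were called (edgeR, background 0.00489% in each direction; 1 at an unadjusted p under 0.05), 2 were without overlap higher (4.17% of all genes) and 1 lower (4.43%), with a median log2 fold change of 0.12. The median turned to -0.35 without sample 7 of those labelled AIBP and to -0.04 without KO cisplatin saline 4, and was 0.43 without KO cisplatin saline 5. Bst2 stood at 119, 122 and 104 CPM after saline and 140, 147 and 149 in the samples labelled AIBP (0.34 ± 0.19, edgeR adjusted p = 0.712). Ifi207 was the member without overlap lower, 42.9, 35.2 and 21.4 CPM against 79.7, 83.2 and 46.7 (-1.07 ± 0.68, edgeR adjusted p = 0.764). Oas3 had the smallest p, but it was detected in few samples, at 0, 1.37 and 0.0251 CPM after saline and 0 in all 3 samples labelled AIBP, so no fold is given. Ifi44, the third by p, held 1 count in each saline sample and 123, 0 and 0 in the samples labelled AIBP. DESeq2 called 0 members.

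After cisplatin and saline few members separated the genotypes. Between KO cisplatin saline and WT cisplatin saline, 0 of 42 were called (edgeR, background 0.0195% higher and 0.0244% lower; 4 at an unadjusted p under 0.05), 5 were without overlap higher (6.1% of all genes) and 0 lower (6.4%), and the median log2 fold change was 0.26. DESeq2 called 1, Slfn2, and 1.96% of all genes. The median was 0.92 without WT cisplatin saline 5 and 6, 0.60 without sample 6 alone and 0.10 without KO cisplatin saline 5. Slfn2 stood at 93.9, 110 and 167 CPM in WT samples, against 274, 290 and 176 in KO samples (1.00 ± 0.26, edgeR adjusted p = 0.269). It was without overlap higher in KO in naive and in saline mice, although the lowest KO sample after saline was close to the highest WT sample. Gbp3 stood at 24.6, 23.0 and 40.5 CPM in WT samples, against 73.8, 60.9 and 48.4 in KO samples (1.06 ± 0.41, edgeR adjusted p = 0.501). Trim30b, of the TRIM30 family of interferon-induced ubiquitin ligase homologues, stood at 3.28, 1.77 and 5.87 CPM and 8.03, 18.8 and 6.29 (1.60 ± 0.70, edgeR adjusted p = 0.541).

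Between the samples labelled KO cisplatin AIBP and WT cisplatin AIBP, 0 of 42 were called (edgeR, background 0% in each direction; 4 at an unadjusted p under 0.05), 4 were without overlap higher (10.8% of all genes) and 3 lower (11.4%), with a median of 0.03. DESeq2 called 1 lower (0.953% of all genes in either direction), Oas3, which was at 0.884 and 1.90 CPM in WT and 0 in all 3 samples labelled KO. The median had no stable direction: it was 0.53 without WT sample 7, -0.32 without WT sample 9 and -0.40 without sample 7 of those labelled KO. Ifi27l2a stood at 14.1 and 10.6 CPM in WT samples, against 60.5, 68.9 and 28.9 in the samples labelled KO (2.09 ± 0.69, edgeR adjusted p = 0.732). Dhx58, which encodes LGP2, the third member of the RIG-I family, stood at 56.5 and 15.7 CPM in WT and 18, 17.9 and 16.5, and the difference rested on WT sample 7 (-1.05 ± 0.44, edgeR adjusted p = 0.732; 0.16 without it).

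The difference between the genotypes in their response to cisplatin was tested directly as an interaction. It was called for 0 of 42 members (edgeR, background 0% in each direction; 5 at an unadjusted p under 0.05, against 7.63% of all genes), although 39 of 42 estimates were negative and the median was -0.96, against -0.05 for all genes. The KO naive samples enter this interaction too, so their high values lower the estimates, and the signs of the 42 members are not independent. The smallest p belonged to Oas1a (-2.01 ± 0.71, edgeR adjusted p = 0.607). Its values were 5.6, 5.98 and 7.91 CPM in WT naive, 3.73, 18.6 and 26.7 after cisplatin, and in KO 35.5, 24.1 and 24.0 and then 15.2, 24.4 and 12.7. WT cisplatin saline samples 5 and 6, those of the group with the highest monocyte marker levels, were the high ones. Without them the Oas1a interaction turned to 0.10. Ifi207 (-2.44 ± 0.98, edgeR adjusted p = 0.612) and Bst2 (-0.62 ± 0.26, edgeR adjusted p = 0.617) came next. The interaction for AIBP was likewise called for 0 members (background 0% in each direction; 2 at an unadjusted p under 0.05, 6.28% of all genes), with a median of -0.40. Ifit3 (-2.18 ± 0.92), Dhx58 (-1.30 ± 0.60) and Oasl2 (-1.81 ± 1.01) had the smallest p, with edgeR adjusted p of 0.774, 0.786 and 0.841, and each was high in WT cisplatin AIBP 7. DESeq2 called 0 members in either interaction. The median was 0.17 without WT cisplatin AIBP 7 and -0.77 without sample 7 of those labelled KO.

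**Figure D4:**
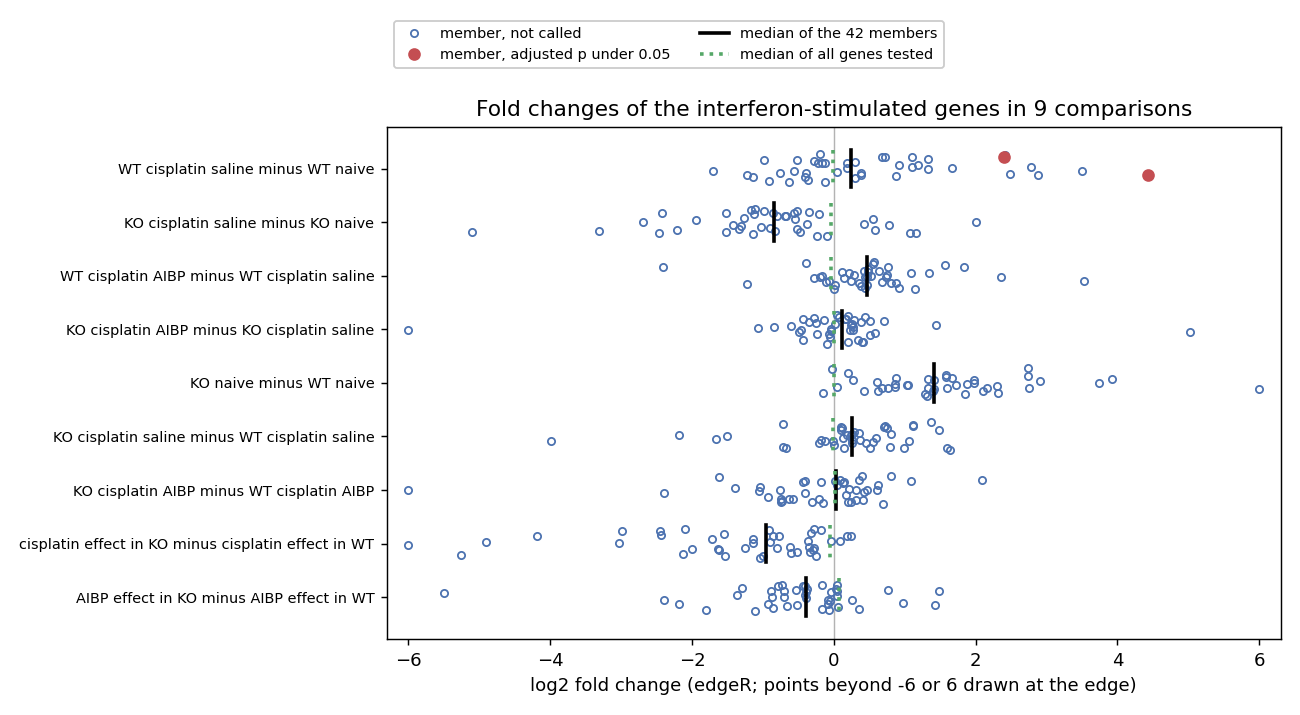
Circles give the edgeR log2 fold change of each of the 42 genes in 9 comparisons, filled red where the adjusted p was under 0.05 (Ifi207 and Ifitm3 in WT cisplatin saline minus WT naive); the black bar is the median of the 42 and the green dotted bar the median of all genes tested, and values beyond -6 or 6 are drawn at the edge. The members' median is 1.41 for KO naive minus WT naive and -0.84 for KO cisplatin saline minus KO naive, and lies within 0.5 of 0 in the other 5 comparisons of groups.

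Within a group the members varied together from sample to sample. For each gene the deviations from its group means were compared with the mean deviation of the other 41 over the 17 samples. Pearson's r was over 0.5 in 31 of 42 members (median 0.56), against 3.71% of the 8538 other genes averaging at least 10 CPM. These values are a description, since genes of a sample share its library. Xaf1 (0.91), Ifi204 (0.88) and Mx1 (0.84) followed the rest most closely, and Gbp3 (-0.18) and Mx2 (0.02) did not. In KO naive, sample 1 was the highest of the 3 in 34 members and sample 3 the lowest in 30. In KO cisplatin saline, sample 5 was highest in 35. Sample 7 was highest in 29 among the samples labelled KO cisplatin AIBP and in 37 in WT cisplatin AIBP. The mean deviation of the members reached 0.64 on the log2 scale in KO cisplatin saline 5 and -0.53 in sample 4 of that group.

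In 5 of the 6 groups the sample that was highest in most members was also the one with the lowest summed level of the 5 dissociation genes. In KO cisplatin saline, sample 5 stood at 1056 CPM for those genes against 3333 and 5361, and in KO naive sample 1 at 3515 against 14341 and 18889. The lowest sample lay near the next one in WT cisplatin AIBP (3709 and 3760 CPM) and among the samples labelled KO cisplatin AIBP (7270, against 7857 and 15112). The same held in WT naive (9397, against 10474 and 21436), where sample 3 was highest in only 21 of 42 members. WT cisplatin saline was the exception, where sample 6 was highest in most members and sample 5 had the lowest dissociation level. This order was looked for after the values were seen, and its part in the comparisons was not tested.

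**Figure D5:**
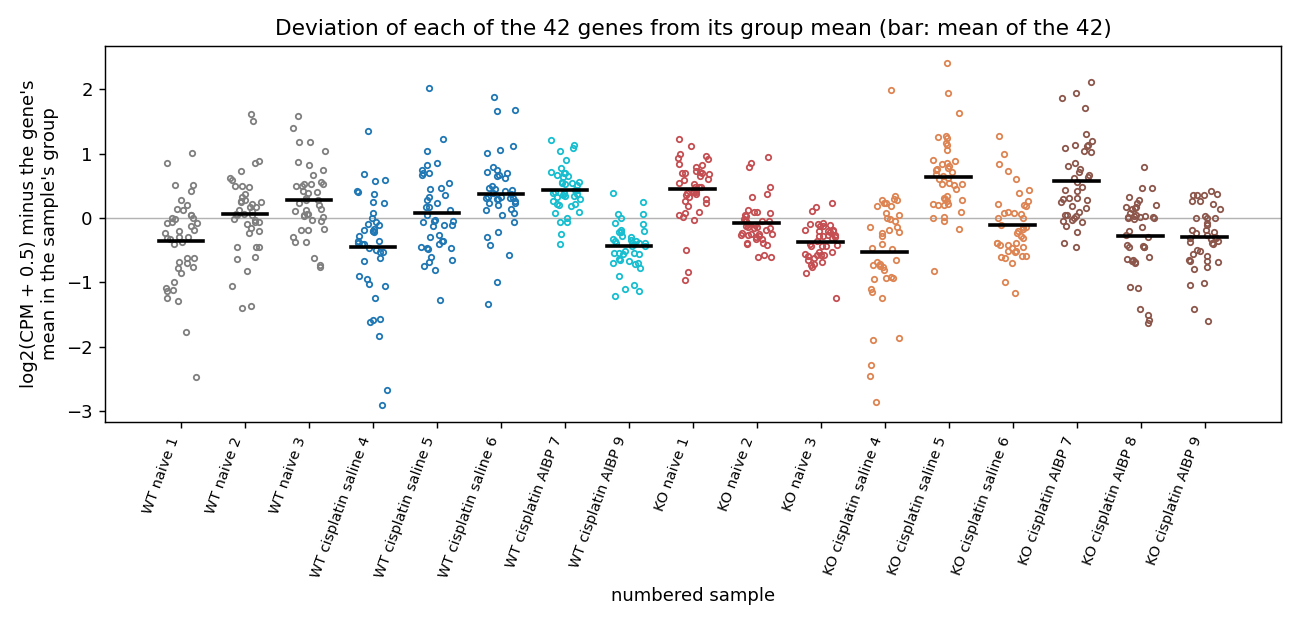
Each circle is 1 of the 42 genes in 1 of 17 samples, plotted as log2(CPM + 0.5) minus the mean of that gene in the sample's group; black bars are the means of the 42 genes. Most genes shift the same way within a sample, upwards in KO cisplatin saline 5 (mean 0.64), the sample labelled KO cisplatin AIBP 7 (0.58) and KO naive 1 (0.45) and downwards in KO cisplatin saline 4 (-0.53).

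Technical spread was large for these genes, also at matched level. The median SD of log2 CPM between the 3 technical replicates of a sample was 1.05 for the members, and 0.93 for the 32 averaging at least 10 CPM, against 0.59 for all 8570 genes at that level. Between the summed samples of a group it was 0.75, 0.65 and 0.38. Over the genes tested, replicates of a sample correlated at only 0.067 in the limma-voom fit of 51 libraries. How much of the shifts between samples described above is technical was not tested. Ifit1 in the 3 replicates of WT naive 3 was at 0, 26.8 and 0.0535 CPM, and 15 of 42 members had 0 counts in at least 1 of the 51 libraries. Slfn2 and Bst2 were the steadiest together, with technical SDs of 0.30 and 0.28. Leaving out 1 technical replicate number in turn left 20, 27 and 23 of 42 members without overlap higher in KO naive, against 4.94 to 5.26% of all genes.

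The rest of the interferon pathway was read from 85 genes listed beside the members, of which 83 are in the files and 63 were tested. The ligands were all but absent. At this depth, 13 of 21 interferon genes had 0 counts in every sample and 20 stayed under 1 CPM. The highest single value was 1.23 CPM, for Ifnb1, which was at 0 in all KO naive samples. Only 2 ligand genes were tested, and the other went the opposite way while staying under 1 CPM. Its log2 fold changes were 6.84 for KO naive minus WT naive and -6.84 for KO cisplatin saline minus KO naive. At such levels no direction is read from either gene. The receptor gene Ifnar1 stood at 115, 155 and 242 CPM in WT naive, against 194, 181 and 182 in KO naive, and Jak1 at 315, 365 and 290 and 311, 291 and 341, with overlapping groups. Among the 9 receptor and kinase genes, 0 passed in any comparison. In naive cells, 13 of the 63 were without overlap higher in KO (5.49% of all genes) and 1 lower (4.14%), 10 of the 13 from the 31 further interferon-stimulated genes on the list, and 0 were called.

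After cisplatin, some of these genes were called. In WT, 1 of 63 rose and 1 fell, near the shares over all genes (1.95% and 0.953%). Ifi30, a lysosomal thiol reductase of antigen processing, rose from 70.2, 76.5 and 92.4 CPM to 297, 198 and 284 (1.7 ± 0.24, edgeR adjusted p = 0.00244). Irf2, an antagonist of the interferon response factors, fell from 163, 123 and 101 CPM to 73.3, 58.4 and 73.1 (-0.92 ± 0.20, edgeR adjusted p = 0.0221). In KO, 1 rose and 6 fell, where 2.42% of all genes rose and 1.99% fell. The one that rose was Ifi30 again (1.17 ± 0.23, edgeR adjusted p = 0.0105).

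The 6 that fell in KO have different parts in the pathway. Tmem173, which encodes the DNA-sensing adaptor STING, fell from 786, 880 and 695 CPM to 315, 456 and 404 (-1.01 ± 0.15, edgeR adjusted p = 0.00226). Uba7 and Ube2l6, the activating and conjugating enzymes of ISG15, fell by 1.44 and 1.76 on the log2 scale (edgeR adjusted p = 0.0163 and 0.0146). Uba7 went from 88.3, 130 and 109 CPM to 38.9, 45.5 and 36.1, and Ube2l6 from 78.9, 53.6 and 77.1 to 16.4, 21.1 and 24.5. Irf8, a lineage factor of microglia (-0.82 ± 0.16), Psmb9, an immunoproteasome subunit (-0.94 ± 0.21), and Socs1, a feedback inhibitor of JAK kinases (-2.34 ± 0.56), were the others, with edgeR adjusted p of 0.0107, 0.0208 and 0.0285. Each of the 6 was without overlap lower. Microglia marker genes were lower in the same samples (summed level 18655 to 21898 CPM against 35046 to 45734 in KO naive), and their part in these falls was not tested.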

How the data were processed

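RNA from sorted spinal microglia was measured in 17 numbered samples, each 3 technical replicates on 2 lanes (102 runs, 51 libraries). The submitters' processing notes name STAR 2.6.0a, DESeq2 and bcl2fastq, with FastQC 0.11.17 and MultiQC 1.7, on GRCm38; the counting tool is not given in the sources used here. Raw counts of 53715 genes and normalized signal of 18856 genes were deposited by the authors. The deposited signal equals raw counts divided by 1 size factor per run (0.437 to 1.62, tolerance 1e-09) and served only to find the members. Raw counts were summed per numbered sample (45.1 to 76.6 M) and tested with edgeR 4.0.16 in R 4.3.3: TMM scaling, filterByExpr, glmQLFit and glmQLFTest on group means of all 17 samples, Benjamini-Hochberg adjustment over 20461 genes and a threshold of 0.05, two-sided, in 9 contrasts of which 2 are interactions. "Called" means past that threshold, and "without overlap" that all samples of 1 group lay above or below all samples of the other. Log2 fold changes are given ± SE. The pipeline was tested on simulated data that varied far less between samples than the real counts. That test therefore does not show how many changes were missed or falsely called here. Symbols and coordinates are from GENCODE M21 on GRCm38. Promoter windows are RefSeq's.

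Members, role groups and lists were chosen with earlier results of these data known. Genes named with values are those called, those among the 3 smallest p of a contrast, and the 8 highest by CPM and by CPM per kb, unless stated. Alternatives were DESeq2 1.42.0, RLE scaling, no filter, at least 10 CPM in a group, the groups of a contrast alone, leaving out each sample, leaving out WT cisplatin saline 5 and 6, and a limma-voom fit (limma 3.58.1) of 51 libraries with the technical replicate number as a replicate block, and the sample number as a block. One item of the pathway is not reported here.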

Additional observations from a re-analysis of the deposited data

How the results depend on the processing

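Over the alternatives, 103 of 125 counts of called members stayed within 1.5 times of the reported count, but nearly all of these were counts of 0 that stayed 0. The only reported count above 0, in WT cisplatin saline minus WT naive, stayed in that range only with RLE scaling (2) and no low-count filter (3). Of the medians, 116 of 125 kept their sign (the 9 that turned were in WT cisplatin, 1, in both AIBP comparisons, 1 and 3, in KO minus WT AIBP, 3, and in the AIBP interaction, 1). Of the single gene values, 781 of 853 kept direction and side of the threshold. For WT cisplatin saline minus WT naive (2 called), DESeq2 called 5 (8.77% of all genes), a minimum of 10 CPM in a group 4, the groups alone 0, leaving out 1 sample 1 to 5, and leaving out WT cisplatin saline 5 and 6 together 0. For KO cisplatin saline minus KO naive (0 called), DESeq2 called 9 (10.7%), no low-count filter 1, a minimum of 10 CPM 5 and the groups alone 2. For KO naive minus WT naive (0 called), DESeq2 called 9 (0.831%) and no filter 1. DESeq2 called 1 in each of the other genotype comparisons (1.96% and 0.953%). With 51 libraries and the technical replicate number as a replicate block the counts were 8, 14 and 5 in these 3 comparisons (9.63%, 12% and 0.0977% of all genes) and 1 (1.5%) for KO minus WT after saline; libraries of 1 sample are not independent samples. The sample number as a replicate block gave 0 called members. Deviations of same-numbered samples from their group means correlated at -0.165 to 0.151 over 8 pairs. No pairing by number was seen, but with so few samples a group this check cannot exclude one. Chosen after seeing the data, leaving out 1 sample or technical replicate number gave 20 to 35 members without overlap higher in KO naive, 6 to 17 higher in WT after cisplatin and 13 to 25 lower in KO after cisplatin, and library size scaling gave 28, 8 and 14. Directions turned, over the fits that left out 1 sample, for Oasl2 (-0.16 to 2.34) and Rtp4 (-0.088 to 2.05) in WT AIBP minus saline and Dhx58 (-1.7 to 0.16) in KO minus WT AIBP, the turned value being the one without WT cisplatin AIBP 7, and for Ifi44 in KO AIBP minus saline (-2.92 without KO cisplatin AIBP 7, up to 5.6, resting on 1 count a saline sample and not read). Oas1a turned without WT cisplatin saline 5 and 6 (-0.75 in WT cisplatin, 0.10 in the interaction). The cause was not tested. Depth limits Ifi44 and Oas3 most.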

Other observations

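Genes outside the 42 that followed their sample-to-sample deviations most closely were listed by Pearson's r over the 17 samples, as a description chosen after the values were seen. Among 8538 other genes averaging at least 10 CPM the highest were the small nucleolar host gene Zfas1 (0.87), 9930104L06Rik (0.85), Eif2ak2 (0.85), which encodes the double-stranded RNA kinase PKR, Bloc1s6 (0.83), Lgals3bp (0.79), Gm43696 (0.78) and the exonuclease gene Isg20 (0.78). Eif2ak2, Lgals3bp and Isg20 are known interferon-stimulated genes. In naive cells Lgals3bp stood at 229, 245 and 311 CPM in WT samples, against 584, 620 and 563 in KO samples, a wide gap (log2 fold change 1.17 ± 0.21, SE, edgeR adjusted p = 0.254). Zfas1 overlapped between the naive groups, at 11.1, 15.6 and 11.2 CPM in WT samples, against 18.5, 13.6 and 10.7 in KO samples, as did 9930104L06Rik, Eif2ak2, Bloc1s6, Gm43696 and Isg20.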
